A study of Mus musculus with 36 samples.

Results

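Resident macrophages are the tissue macrophages of the uninjured heart. They are long-lived phagocytes that clear debris and dying cells, and they carry surface proteins such as Lyve1 (a hyaluronan receptor), Folr2 (a folate receptor) and Cd163 (a receptor for haemoglobin bound to haptoglobin). After an infarct, circulating monocytes enter the tissue in large numbers and become macrophages of other kinds, so that the resident cells form a smaller part of a mixed pool. Macrophages that present antigen to T cells display MHC class II, a heterodimer of an alpha and a beta chain that is assembled with the invariant chain Cd74 and loaded with peptide by H2-DM.

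In these data, 98 of 3146 wells with at least 1000 unique molecular identifiers (UMIs, the tags that count single transcripts) were taken as resident macrophages. The cells were chosen by measured marker UMIs. A well qualified when Lyz2, Ctss, C1qa, C1qb, C1qc, Cd68, Csf1r and Mrc1 together made up at least 1% of its UMIs, S100a8 and S100a9 less than 1%, and Col1a1, Col1a2, Col3a1, Dcn and Lum less than 2%. In addition, its UMIs of Lyve1, Folr2, Cd163, Vsig4, Cbr2 and Fcna had to exceed the UMIs of each of 2 other marker sets, a set that includes Ccr2, Cxcl3 and Thbs1 and a set of Gpnmb, Atp6v0d2 and Ifi202b. The first condition, with the limits on neutrophil and fibroblast genes, was met by 404 wells, called macrophage-gated below. Of these, 160 had the set with Ccr2, Cxcl3 and Thbs1 as their highest sum (Ccr2/Thbs1 macrophages), 131 had the set with Gpnmb (Gpnmb macrophages) and 15 had a tie. Replicate 2 of the day 14 sham group was left out, because 35 of its wells matched deeper wells of replicate 7 under the same well number, 43 matched the other way round, and 17 matched wells of IR day 3 replicate 6, which was kept.

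By the labels, male C57BL/6 mice of 8 weeks gave the cells (wild type in the study's methods). The cells were taken from the infarcted part of the left ventricle or, by the study's methods, from the matching region in sham. They were sorted 1 per well into multiwell plates (SORT-seq). Ischemia-reperfusion (IR), a ligation of the left anterior descending artery for 1 hour, was sampled on 9 plates for day 1, on 7 for day 3 and on 3 for day 14. Myocardial infarction (MI), a permanent ligation of the same artery, was sampled at day 3 (5 plates), and sham surgery at day 1 (4 plates) and day 14 (7 plates used). The mouse behind each plate is not stated and the study used fewer mice than plates, so p-values measure the spread between plates and may be too small. Day 3 has no sham group in these data, and the MI plates carry a protocol label of their own, so that surgery and any difference that goes with this label cannot be told apart for MI.

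Resident macrophages numbered 14 and 5 in sham (days 1 and 14), 11, 38 and 4 in IR (days 1, 3 and 14) and 26 in MI day 3. Their depth was unequal. The median member held 4732 and 3530.0 UMIs in sham, 9511, 2604 and 6239.5 UMIs in IR (in the same order of days) and 24531 UMIs in MI. A gene with few transcripts was therefore easier to detect after MI than in any other group. The part of depth in the results below was not tested, except by 1 alternative that thinned every cell to 1000 UMIs for the shares, the MHC class II load and the comparison with other macrophages.

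The markers that chose the cells are given as a description. Cbr2, a carbonyl reductase, had UMIs in 90 of 98 cells, Folr2 in 86, Lyve1 in 59, Cd163 in 56, the secreted lectin Fcna in 46 and Vsig4, a complement receptor, in 24. The rule asks for their sum to lead in every member, so their levels in the members are set in part by it. In counts per 1000000 UMIs summed over the members of a group (CPM), Cbr2 stood at 2194 in sham day 1, 1941 in IR day 3 and 1996 in MI day 3. Lyve1 stood at 1587 and 2412 in sham (days 1 and 14), at 1505, 556 and 2093 in IR (days 1, 3 and 14) and at 684 in MI. Between MI plates the level of Lyve1 differed widely, at 299.8, 57.7, 155, 472 and 2857 CPM in replicates 1 to 5. The 4 IR day 3 plates with at least 3 members (replicates 3, 4, 5 and 7) gave 3019, 159.8, 553 and 201. Sham plates gave 1339, 2403 and 939.7 at day 1 (replicates 2, 3 and 4) and 2439 at day 14 (replicate 8). The highest MI plate and the highest IR plate were thus above every sham plate, and the other plates of both injuries were below every sham plate.

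The threshold of the rule passed through cells of few marker UMIs. The margin by which the resident sum led was 1 UMI in 2 members and at least 10 UMIs in 64, with a median of 17.0. On the other side, 8 cells of the other classes were 1 UMI short of membership. At least 3 resident UMIs and a sum at least 2 times both others were found in 84 members, which was used as a stricter rule.

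Genes outside the rule gave a check of the name. Timd4, a phosphatidylserine receptor known from long-lived tissue macrophages, had UMIs in 22 of 98 members, in 1 of 160 Ccr2/Thbs1 macrophages and in 0 of 131 Gpnmb macrophages (which allows a share of up to 2.29% of cells with a UMI, for counting error only). The members were the shallowest of the 3 classes, with a median of 5437 UMIs against 17106 and 12010.0. Emr1, which encodes the macrophage antigen F4/80, had UMIs in 81.6% of members, 87.5% of Ccr2/Thbs1 and 85.5% of Gpnmb macrophages. Mertk, a receptor for dying cells, had UMIs in 13.3% of members against 26.2 and 38.9% of the other classes, and Fcgr1, an Fc receptor, in 54.1% against 82.5 and 84.7%. These shares are not corrected for the lower depth of the members. Per UMI, Emr1 stood at 427 CPM in members against 311 and 422, Mertk at 23.9 CPM against 15.6 and 35.1, and Fcgr1 at 198 CPM against 290.5 and 339.8, each over all cells of a class, so that Fcgr1 alone of the 3 was lowest in members on both scales. The lymphatic endothelial markers Prox1, Pdpn, Flt4 and Mmrn1, which matter because Lyve1 also marks lymphatic vessels, reached at most 0.0105% of member UMIs in any group, and Flt4 was at 0 in every group. Dendritic cell markers reached at most 0.00496%, B cell markers 0.00536% and T or NK cell markers 0.00184%. No protein was measured, so the cells are resident-macrophage-like by transcript alone.

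Transcripts of other heart cells were present and differed between groups. The 10 cardiomyocyte markers took 0.611% of member UMIs in sham day 1 and 0.734% in sham day 14, against 0.0459, 0.417 and 0.217% at days 1, 3 and 14 of IR and 0.0239% in MI. Myh6 and Ryr2 were at 0 in all MI members. Fibroblast markers ran the other way, at 0.0236% in sham day 1 and 0.0107% in sham day 14 but 0.134% in IR day 3 and 0.150% in MI day 3. Cardiomyocyte genes are reported below as a measured property of the wells, and their source was not tested. No member was a copied well, and 1 member's well had a copy on another plate of IR day 1.

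The first comparison asked how large a part of the macrophage pool the resident cells were. On plates with at least 5 macrophage-gated cells, they made up 83.3% on both sham plates (replicates 3 and 4 of day 1). Each of these sham plates held 6 gated cells, 5 of them resident, so that a single cell weighs heavily on the value. On the 6 IR day 3 plates the share was 16.7, 57.9, 13.9, 62.5, 11.1 and 15%, and on the 5 MI plates it was 8.89, 17.6, 18.2, 15.8 and 27.3%. No plate of either injury at day 3 reached the sham value. The mean was 29.5% ± 23.9 (SD, n = 6) for IR day 3 and 17.6% ± 6.58 (SD, n = 5) for MI day 3. With 2 sham plates, the exact permutation test (two-sided) could not pass 0.05: its p was 0.0714 for IR day 3 and 0.0952 for MI day 3, the smallest value each design allows (both 0.143 after Benjamini-Hochberg adjustment). The 2 IR plates near 60%, replicates 3 and 5, had 19 and 8 gated cells, and the other 4 had between 6 and 79. In IR day 1, replicate 3 was the 1 plate with enough gated cells, at 26.7%. In IR day 14, replicate 3 reached 66.7% with 6 gated cells.

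As a share of all cells, resident macrophages had their highest mean in IR day 3. They were 9.19% ± 7.07 (SD, n = 6) of the cells on IR day 3 plates, against 2.64% ± 3.37 (SD, n = 11) on sham plates and 2.06% ± 1.89 (SD, n = 9) on IR day 1 plates. The difference of 6.55 percentage points from sham had an exact permutation p of 0.0259 (adjusted 0.0776), and that of 7.13 points from IR day 1 had p = 0.00999 (adjusted 0.0599, exact permutation), so that neither passed 0.05 after adjustment over the tested comparisons. MI day 3 stood at 3.76% ± 1.30 (SD, n = 5), with a difference from sham of 1.12 points (exact permutation p = 0.485). The value for IR day 14 was 0.883% ± 1.53 (SD, n = 3), carried by 1 plate. The high IR day 3 values came from plates with few cells. Replicates 1, 3 and 5, with 11, 54 and 34 cells, stood at 9.09, 20.4 and 14.7%. Replicate 6, with 43 cells, stood at 2.33%. Replicates 4 and 7, with 264 and 202 cells, stood at 4.17 and 4.46%, within the sham day 1 range of 0.840 to 6.41%. The highest sham plate, replicate 6 of day 14, held 1 resident cell. Pooled over plates, the share was 6.25% in IR day 3, 3.24% in sham day 1 and 3.61% in MI day 3. Shares of sorted cells depend on what else survived digestion and sorting, and fewer other cells and more resident macrophages cannot be told apart here.

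**Figure D1:**
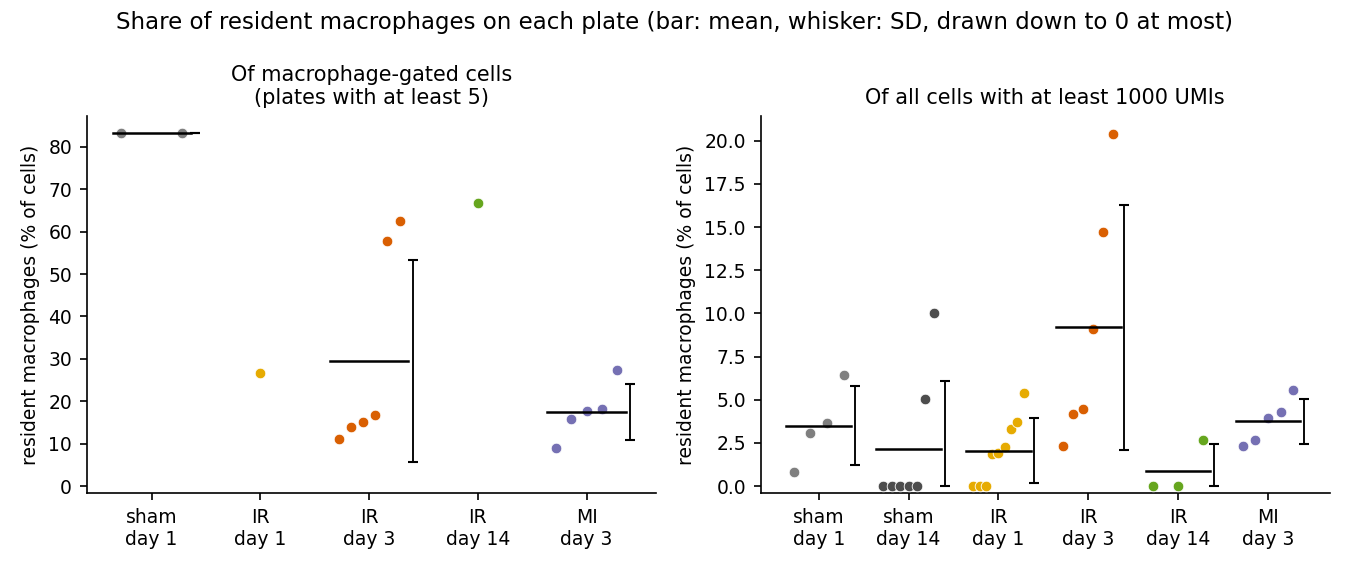
Share of resident macrophages on each plate, in percent of macrophage-gated cells (left, plates with at least 5 such cells) and of all cells with at least 1000 UMIs (right). Each point is a plate, the bar is the group mean and the whisker the SD, drawn no lower than 0. On the left, both sham plates lie at 83.3% and the MI plates between 8.89 and 27.3%.

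For gene tests, UMIs were summed over the resident macrophages of each plate with at least 3 of them, which left 3 sham day 1 plates, 1 sham day 14 plate, 1 IR day 1 plate, 4 IR day 3 plates, 1 IR day 14 plate and all 5 MI plates. These 15 sums held between 13580 and 182231 UMIs. All were fitted at once with edgeR (quasi-likelihood F test, Benjamini-Hochberg adjustment over 1644 genes outside the rule). Day 3 was set against both sham groups with equal weight, so the single sham day 14 plate (replicate 8) counted as much as the 3 plates of day 1. Called folds were also fitted without it, and that value is given where it moved much.

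The largest set of differences was that between MI day 3 and sham, where 79 genes were higher and 58 lower (8.33% of genes tested; 4.81% higher and 3.53% lower). The split depended on the scaling, with 57.7% of calls higher under TMM, 48.5% under RLE and 38.9% in DESeq2, and it was 47.3% without the sham day 14 plate and 22.4% with plates of at least 5 members. The median over all genes was 0.19 on the log2 scale under TMM and 0.03 under RLE. MHC class II genes and the cardiomyocyte genes led the fall, and genes of the lysosome and of glycolysis were among those that rose.

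MHC class II had the largest median change of the 13 gene lists. Of its 8 genes, 5 were expressed enough to be tested, and all 5 fell after MI, with a median log2 fold change of -5.98. H2-DMa, H2-Ab1, H2-Aa and H2-Eb1 lie in this order on chromosome 17, between positions 34119693 and 34316674 (GRCm38.p6). H2-Aa, the alpha chain of I-A, stood at 55.8, 1602 and 1691 CPM in sham day 1 and at 11660.4 CPM in sham day 14. In MI it stood at 40.0, 19.2, 0, 11 and 37.0 CPM, below every sham plate. The plates of both groups did not overlap for any of the 5 genes, as was the case for 15.6% of all genes tested. The log2 fold change of H2-Aa was -7.24 (SE 0.86, adjusted p = 3.36e-05, edgeR), and it was -5.70 without the sham day 14 plate.

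The other chains behaved alike. H2-Ab1, the beta chain of I-A, stood at 391, 1479, 1804 and 9519 CPM in sham and at 46.6, 25.7, 38.7, 32.9 and 27.7 CPM in MI (log2 -6.56, SE 0.73, and -5.22 without sham day 14). H2-Eb1, the beta chain of I-E, went from 112, 1479, 1015 and 7139 CPM to 46.6, 32.1, 38.7, 11 and 83.2 CPM (log2 -5.90, SE 0.68, and -4.54 without sham day 14). Cd74, the invariant chain, fell by 5.98 on the log2 scale (SE 0.88, adjusted p = 0.000368, edgeR), from 2622, 2527, 4473 and 9935 CPM to 199.9, 25.7, 77.4, 43.9 and 83.2 CPM, and it was at -5.26 without sham day 14. H2-DMa, a subunit of the peptide loader, fell by 3.49 (SE 0.63). Replicate 2 was the lowest sham plate for H2-Aa, H2-Ab1 and H2-Eb1, and it was still above each MI plate for these genes.

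IR day 3 lay between the groups and was uneven. H2-Aa stood at 589, 29.1, 1056 and 126 CPM in its 4 plates, and Cd74 at 295, 14.5, 2514 and 126 CPM. For H2-Aa, replicates 3, 5 and 7 thus lay within the range of sham day 1, and replicate 4 lay within the range of MI. Single cells led some of these sums. On replicate 5 the highest cell had 1.75% of its UMIs from the 8 MHC class II genes, and the next 0.0147%. On replicate 3 the highest cell had 2.06% and the next 0.228%. The median cell had 0.0279% in IR day 3 and 0.0221% in MI day 3. Against sham, H2-Eb1 was the 1 MHC class II gene past the threshold (log2 -4.05, SE 0.76, adjusted p = 0.0242, edgeR), and it missed without the sham day 14 plate (-2.73, adjusted p = 0.0559, edgeR). The test of MI against IR itself passed for H2-Aa (log2 -3.76, SE 0.97, adjusted p = 0.0417, edgeR) and H2-Ab1 (log2 -3.61, SE 0.79, adjusted p = 0.0175, edgeR). Without IR replicate 3, both were lost (adjusted p = 0.126 and 0.0672, edgeR), and over 20 alternatives H2-Aa passed under 8 and H2-Ab1 under 15. At day 1 of IR, the single plate held H2-Aa at 168 CPM and H2-Ab1 at 28.0 CPM, and at day 14 of IR the single plate held H2-Aa at 0 and Cd74 at 465 CPM.

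Per cell, the sum of the 8 MHC class II genes was skewed in sham hearts. In sham day 1 its median was 0.190% of a cell's UMIs with a highest value of 4.20%, and 3 of 14 cells had none. In sham day 14 the median was 2.31% and the highest value 6.61%. At least 1% was reached by 6 of 19 sham cells, by 3 of 38 IR day 3 cells and by 0 of 26 MI cells, 0 of 11 IR day 1 cells and 0 of 4 IR day 14 cells, which allow shares of up to 11.5%, 27.3% and 75%. These limits are 3 over the number of cells, which is rough for so few cells. They cover counting error in cells pooled over plates and leave out the spread between plates. The IR day 14 cells all came from 1 plate. The highest MI cell had 0.211%. Of the 6 sham cells with at least 1%, 4 had Lyve1 UMIs and 1 had Timd4 UMIs, and of the 13 sham cells below 1%, 12 had Lyve1 UMIs and 6 had Timd4 UMIs. The sham cells thus held both MHC class II high and low cells by transcript.

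Taking the median cell of each plate, the load was 1.11% ± 1.53 (SD, n = 4) in sham, 0.0342% ± 0.0396 (SD, n = 4) in IR day 3 and 0.0237% ± 0.0133 (SD, n = 5) in MI day 3. The sham plates gave 0.465, 0.0449 and 0.539% at day 1 (replicates 2, 3 and 4) and 3.38% at day 14. The lowest of them was barely above the highest MI plate (0.0444%, replicate 1) and below the highest IR day 3 plate (0.0891%, replicate 3). The difference between MI and sham was -1.08 percentage points (exact permutation p = 0.0159, adjusted 0.0476; 5 against 4 plates can give no lower p), and that between IR day 3 and sham had p = 0.0571 (exact permutation, adjusted 0.0857). Without the sham day 14 plate the MI difference was -0.326 points (exact permutation p = 0.0357, adjusted 0.107), and the adjusted p also missed 0.05 when any other single plate of either group was left out, where the smaller design can hardly pass after adjustment over 3 comparisons. The difference between MI and IR day 3 was within the spread of the plates (exact permutation p = 0.667).

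**Figure D2:**
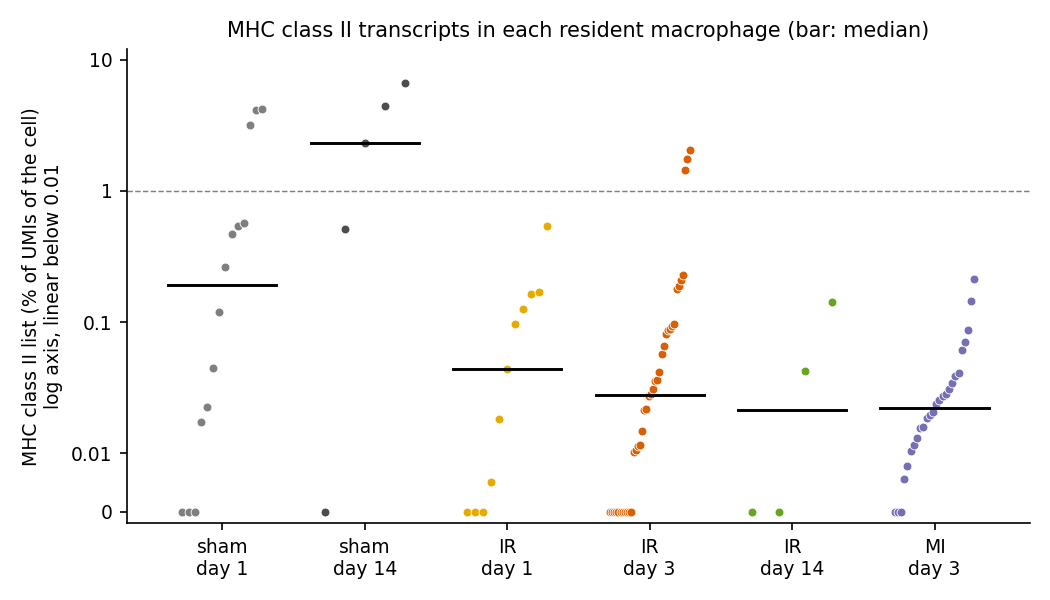
MHC class II transcripts of each resident macrophage, as the percent of its UMIs from the 8 listed genes (log axis, linear below 0.01). Points are cells, ordered by value within a group, bars are medians and the dashed line marks 1%. Cells above the line are found in both sham groups and in IR day 3, and the highest MI cell lies at 0.211%.

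Promoters of MHC class II genes carry a conserved Y box, an inverted CCAAT motif, close to the start. The letters CTGATTGG or their reverse complement were searched in the 150 bases before each RefSeq start (GRCm38.p6). They occurred in 2 of the 5 MHC class II genes with a window (H2-Aa, H2-DMa, H2-DMb1, H2-DMb2 and H2-Eb1, of which H2-Aa, H2-DMa and H2-Eb1 are among the genes that fell), in 71 of 1283 genes tested (5.53%) and in 1039 of 32851 windows of all genes (3.16%). Both are shown as the MHC class II genes with a match, with the motif in capitals, 51 and 62 bases before the start. H2-Aa lies on the minus strand (window chr17:34287824-34287973) and H2-Eb1 on the plus strand (chr17:34305717-34305866).
H2-Aa: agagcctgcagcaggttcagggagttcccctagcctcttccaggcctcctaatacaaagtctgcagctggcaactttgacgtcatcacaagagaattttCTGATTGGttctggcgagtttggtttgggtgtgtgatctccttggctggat
H2-Eb1: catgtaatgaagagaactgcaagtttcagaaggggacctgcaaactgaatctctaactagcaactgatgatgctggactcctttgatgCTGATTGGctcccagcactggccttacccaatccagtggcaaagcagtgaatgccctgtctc
The match is a description of the sequence. Among genes that fell after MI, 4 of 44 with a window held it, and among genes that rose, 2 of 69, one of them Spp1 (window chr5:104434961-104435110, plus strand, 49 bases before the start).
Spp1: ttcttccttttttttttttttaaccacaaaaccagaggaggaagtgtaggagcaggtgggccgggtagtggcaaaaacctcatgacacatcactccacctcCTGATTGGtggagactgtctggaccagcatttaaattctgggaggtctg

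Spp1, which encodes the secreted matrix protein osteopontin, moved in the opposite direction. It had 0 UMIs in all 4 sham plates, and 1746, 1398, 3857, 3485 and 481 CPM in the 5 MI plates. In IR day 3 it stood at 73.6, 4532, 3369 and 1029 CPM, in the order of replicates 3, 4, 5 and 7. The level was at least 68.0-fold higher in MI and at least 109-fold higher in IR day 3 than 3 UMIs over all sham plates would give. The IR day 3 value rested on replicate 4, without which it was at least 46.5-fold. Without sham day 1 replicate 3, which held the most sham UMIs, the values were at least 44.5-fold for MI and 71.0-fold for IR day 3. Both changes passed the test (edgeR, adjusted p = 0.00635 for MI and 0.0358 for IR day 3). The IR day 3 call passed under 16 of 21 alternatives and was lost with mixed wells left out (adjusted p = 0.0694, edgeR), and the MI call passed under 20 of 22. The IR day 1 plate held 112 CPM and the IR day 14 plate 0. On the same plates Spp1 was mostly higher in the other macrophages (below), and whether transcripts from those cells add to the level in these wells was not tested.

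Of 18 tested genes of lysosomes and lipid-laden phagocytes, 8 rose after MI and 0 fell, against 4.81% higher over all genes, and their median log2 fold change was 1.67 beside 0.19 for all genes. Ctsd, a lysosomal aspartic protease, had 112, 154, 413 and 238 CPM in sham and 5770.3, 5426, 6373, 4889 and 2866 CPM in MI. Its log2 fold change was 4.46 (SE 0.75, adjusted p = 0.00119, edgeR). In IR day 3 it had 663, 6936, 3519.9 and 2510.5 CPM (log2 3.93, SE 0.74), so that each plate of both injuries was above each sham plate.

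The cathepsins Ctsl (log2 2.00, SE 0.46) and Ctsz (1.74, SE 0.47), the legumain protease Lgmn (1.60, SE 0.41), the sphingolipid activator Psap (1.75, SE 0.41), the lysosomal membrane tetraspanin Cd63 (2.95, SE 0.65) and the lipid droplet protein Plin2 (1.89, SE 0.49) rose as well. Without the sham day 14 plate Cd63 was at 1.45 (adjusted p = 0.0475, edgeR) and Plin2 at 2.59, and against the day 1 sham plates alone Cd63 missed (1.4, adjusted p = 0.0602, edgeR), as did Ctsz (1.29, adjusted p = 0.0582, edgeR). Ctsz also missed with mixed wells left out (adjusted p = 0.0551, edgeR) and with the replicate block (adjusted p = 0.0764, edgeR), and it passed under 15 of 22 alternatives. Trem2, a lipid-sensing receptor of phagocytes, had 0, 92.4, 263 and 0 CPM in sham and 526, 744, 658, 593 and 499 CPM in MI. Its log2 fold change of 5.25 dropped to 2.16 without the sham day 14 plate, where it had no UMI, and it still passed (adjusted p = 0.0285, edgeR). Atp6v1a, a subunit of the proton pump that acidifies lysosomes, likewise went from 5.47 to 2.32. Apoe and Ctsb, both highly expressed, did not pass (adjusted p = 0.0657 and 0.0627, edgeR).

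The E box CACGTG, the core of the element through which lysosomal genes are known to be co-regulated, was found in 4 of 17 genes of this list with a window and in 2 of its 8 genes that rose, Ctsd and Lgmn. It was in 105 of 1283 genes tested (8.18%), in 9 of 69 that rose and in 0 of 44 that fell, and in 4.30% of all windows. The Ctsd window (chr7:142387828-142387977, minus strand) is shown because Ctsd rose in both injuries, with the E box in capitals 98 bases before the start.
Ctsd: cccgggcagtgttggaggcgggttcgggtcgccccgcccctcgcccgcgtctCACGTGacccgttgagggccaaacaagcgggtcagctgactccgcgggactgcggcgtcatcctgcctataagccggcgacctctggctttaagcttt
The counts are given as a description of these windows.

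Genes of glycolysis rose in MI, with 6 of 7 tested past the threshold (4.81% higher over all genes) and a median log2 fold change of 2.35 beside 0.19 for all genes. Pkm, the pyruvate kinase, had 893, 339, 188 and 357 CPM in sham and 2012, 1815, 2025, 2074 and 1683 CPM in MI (log2 2.35, SE 0.50). Pgam1 rose by 3.33 (SE 0.63), Ldha by 1.86 (SE 0.43), Aldoa by 1.39 (SE 0.42), Gapdh by 2.56 (SE 0.70) and Tpi1 by 4.86 (SE 1.03), all on the log2 scale. Aldoa passed under 7 of 22 alternatives, and it missed with mixed wells left out (adjusted p = 0.0603, edgeR) and with the replicate block (adjusted p = 0.128, edgeR). Pgk1 was 1.31 higher and just missed (adjusted p = 0.0524, edgeR). Tpi1 and Gapdh rested in part on the sham day 14 plate, without which they were 1.58 (adjusted p = 0.0421, edgeR) and 1.00 (adjusted p = 0.188, edgeR), and Pgam1 was then at 2.52. Gapdh and Aldoa have many near-identical copies, and how the authors' counting split such reads is not stated.

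Hmox1, the haem oxygenase, and Lgals3, a galectin of phagocytes, rose together with these genes. Hmox1 had 0, 154, 301 and 178 CPM in sham and 6190, 1058, 2619, 3314 and 4632 CPM in MI (log2 4.40, SE 0.82, adjusted p = 0.00297, edgeR). Lgals3 had 167, 123, 376 and 119 CPM in sham and 4491, 3258, 3019, 2415 and 1276 CPM in MI (log2 4.18, SE 0.86). Every MI plate was above every sham plate for both. Of 8 iron and haem genes, Ftl1 (ferritin light chain) was the other 1 that rose (4.81% higher over all genes), by 1.33 (SE 0.36), and it did not pass without the sham day 14 plate (0.90, adjusted p = 0.105, edgeR).

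Among genes at or close to 0 in sham, Bgn (the matrix proteoglycan biglycan), Glrx (a glutaredoxin) and Mmp14 (a membrane-bound collagenase) had 0 UMIs in every sham plate. They were at least 5.24-fold, 6.08-fold and 4.92-fold higher in MI than 3 UMIs over all sham plates, and at least 3.43-fold, 3.97-fold and 3.22-fold higher without sham day 1 replicate 3. Bgn is also made by fibroblasts, whose markers took 0.150% of member UMIs in MI and at most 0.0236% in sham, and their part was not tested. Tmsb10, a small actin-binding protein, had 307 UMIs in MI and 1 in sham, a ratio of 42.7 (95% exact counting interval 7.61 to 1693). Adam8, a membrane protease, had 395 and 2 UMIs, a ratio of 27.5 (7.56 to 228).

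Of 24 tested genes that mark resident macrophages but were not part of the rule, 0 rose and 3 fell after MI (3.53% lower over all genes), with a median of -0.23 on the log2 scale. They included Mgl2, a C-type lectin, and Ccl24, an eosinophil chemokine. Mgl2 fell from 948, 185, 564 and 892 CPM to 6.66, 32.1, 0, 16.5 and 9.25 CPM (log2 -5.35, SE 0.82, adjusted p = 0.000569, edgeR). Ccl24 fell by 3.69 (SE 0.97). Cx3cr1, the fractalkine receptor, had 1339, 216, 37.6 and 297 CPM in sham and 66.6, 25.7, 25.8, 38.4 and 9.25 CPM in MI. It fell by 3.28 on the log2 scale (SE 0.87), and its plates overlapped. Cx3cr1 belongs to a list of macrophage transcription factors and receptors, of which 2 of 14 tested genes fell and 0 rose (3.53% lower over all genes). The other was Tgfbr2, a receptor for TGF-beta, which passed under 6 of 22 alternatives, with log2 values between -1.67 and -0.33. Cx3cr1 passed under 18 of 21.

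Among the 24 tested resident macrophage genes outside the rule, those that did not pass include some of the best known. Gas6, the bridging ligand between dying cells and the Tyro3, Axl and Mertk receptors, had 502, 616, 902 and 1725 CPM in sham and 1739, 1533, 890.1, 988 and 1599.6 CPM in MI (log2 0.36, SE 0.39). Igf1, insulin-like growth factor 1, had 669, 339, 564 and 714 CPM in sham and 659.6, 494, 399.9, 274 and 314 CPM in MI (log2 -0.43, SE 0.36). In IR day 3, Igf1 stood at 884, 777, 855 and 879 CPM, the narrowest range of any group with more than 1 plate. Pf4, a platelet-type chemokine, was at -0.01 (SE 0.37) and the transcription factor Maf at -0.23 (SE 0.41). Timd4 was at 112, 123, 113 and 178 CPM in sham and at 0, 6.41, 90.3, 54.9 and 0 CPM in MI (log2 -2.25, SE 1.31, adjusted p = 0.30, edgeR).

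Cardiomyocyte transcripts were lower in MI. Myh6, the alpha heavy chain of cardiac myosin, had 335, 678, 338 and 238 CPM in sham and 0 UMIs in all 5 MI plates, at least 98.2-fold lower than sham against 3 UMIs over the MI plates. Ttn fell by 5.76 (SE 0.82), Mb by 5.00 (SE 0.56), Myl2 by 4.5 (SE 0.63) and Cox6a2 by 4.46 (SE 0.65). Without the sham day 14 plate, Mb was at -4.14 and Myl2 at -3.85. All are known from heart muscle.

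**Figure D3:**
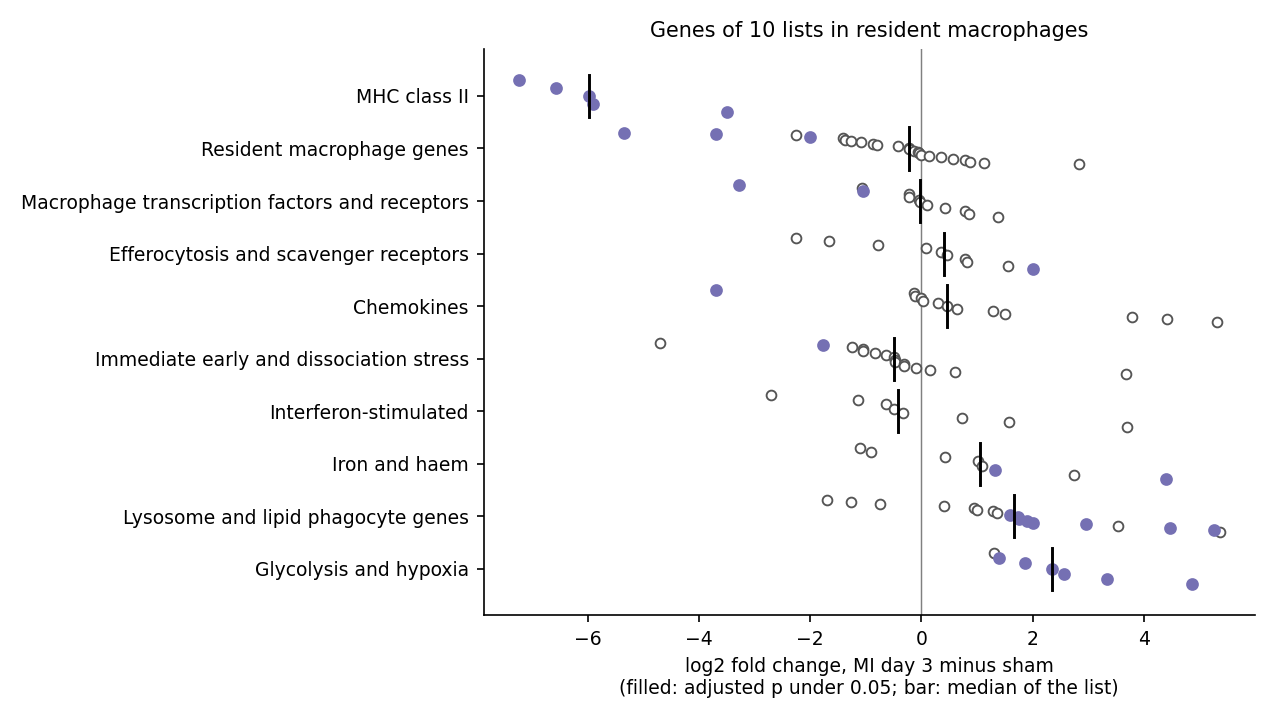
Log2 fold changes of resident macrophages between MI day 3 and sham for the tested genes of 10 lists. Each circle is a gene outside the rule, filled where the adjusted p is under 0.05, and the bar is the median of the list. MHC class II lies farthest to the left with a median of -5.98, and the lysosome and glycolysis lists lie to the right with medians of 1.67 and 2.35.

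IR day 3 differed from sham in fewer genes, with 9 higher and 1 lower (0.608% of genes tested; 0.547% higher and 0.0608% lower). Plates of IR and sham did not overlap for 6.51% of genes tested. Apart from Spp1 and Ctsd, the genes that rose included Atp6v1a (log2 5.45, SE 0.90, adjusted p = 0.0140, edgeR), the lysosomal cation pump Atp13a2 (4.53, SE 0.94), the phospholipid-binding annexin Anxa2 (2.79, SE 0.59) and the protease inhibitor Cstb (2.71, SE 0.61). Without the sham day 14 plate, Atp6v1a was at 2.31, Cstb at 1.78 (adjusted p = 0.0484, edgeR) and Anxa2 at 3.14, and Atp13a2 missed the threshold at 1.45 (adjusted p = 0.0625, edgeR). Cstb passed under 8 of 21 alternatives, Atp13a2 under 11, Anxa2 under 15 and Atp6v1a under 19. With mixed wells left out, Cstb, Atp13a2, Anxa2 and Clec4d (named next) all missed, at adjusted p between 0.0601 and 0.0718 (edgeR). Clec4d, a C-type lectin, had 59 UMIs in IR day 3 and 1 in sham, a ratio of 26.2 (95% exact counting interval 4.53 to 1053). The median of the lysosome list was 1.32 and that of the glycolysis list 1.46, with 1 and 0 genes past the threshold, and the MHC class II median was -3.20. The count of calls was unstable: it was 60 without the sham day 14 plate, 46 without IR replicate 3, and 1 without sham day 1 replicate 3 or without IR replicate 4. The split turned as well, with 29 genes higher and 31 lower without the sham day 14 plate, 11 and 27 against the day 1 sham plates alone, 7 and 19 with the replicate block and 2 and 17 with plates of at least 5 members. At an unadjusted p under 0.05 there were 235 genes.

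**Figure D4:**
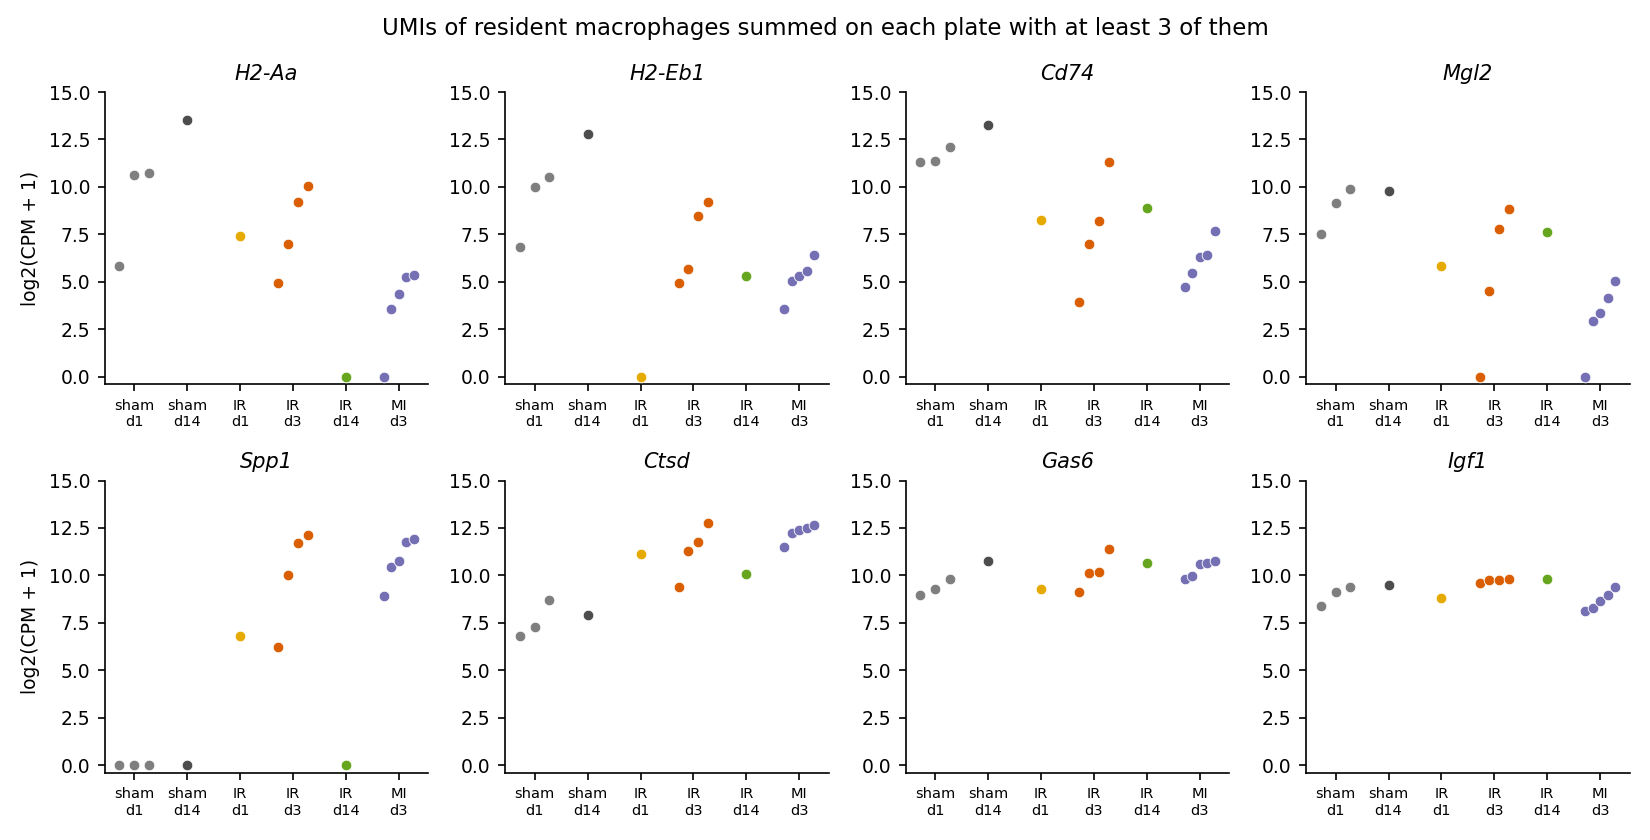
Levels of 8 genes in resident macrophages, as log2(CPM + 1) of the UMIs summed over the members of each plate with at least 3 of them. Each point is a plate. H2-Aa, H2-Eb1, Cd74 and Mgl2 are lower on every MI plate than on every sham plate, Spp1 and Ctsd are higher, and the sham and MI plates overlap for Gas6 and Igf1.

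Setting MI against IR at day 3, 15 genes were higher in MI and 29 lower (2.68% of genes tested; 0.912% higher and 1.76% lower), and plates did not overlap for 6.93% of genes. The 12 lower genes with the largest change and no overlap between plates are all known from heart muscle, among them Ttn (log2 -5.86, SE 0.65), Mb (-4.68, SE 0.52), Tnni3 (-4.62, SE 0.90), Actc1 (-4.02, SE 0.48) and Tnnt2 (-3.80, SE 0.54). The markers of cardiomyocytes took between 0.265 and 1.04% of member UMIs on IR day 3 plates and between 0.0137 and 0.0426% on MI plates. Without members in which more than 1% of UMIs came from another cell type, the count of genes was 21. Beside these and MHC class II, Lpl, the lipoprotein lipase, was lower in MI, at 139.9, 70.5, 309.6, 318 and 92.5 CPM against 589, 944, 402 and 1205 CPM in IR (log2 -2.16, SE 0.51, adjusted p = 0.0228, edgeR). Rsad2, an interferon-induced antiviral protein, had 3 UMIs in MI and 17 in IR, a ratio of 18.1 (95% exact counting interval 5.24 to 96.4). It passed under 10 of 19 alternatives.

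Higher in MI than in IR were the cytokine Mif, with 846, 661, 748, 532 and 444 CPM against 295, 203, 101 and 100.4 CPM (log2 1.92, SE 0.35, adjusted p = 0.00441, edgeR), and the cytoskeletal genes Tubb5 (1.41, SE 0.27), Tuba1c (1.60, SE 0.40), Cotl1 (1.26, SE 0.30) and Myh9 (2.32, SE 0.52). The lysosomal thioesterase Ppt1 (1.38, SE 0.32) and the ribosomal protein genes Rpl7a (1.48, SE 0.33), Rps15 (1.27, SE 0.29) and Rpl29 (1.25, SE 0.33) were higher too. Of 20 alternatives, Mif passed under 19, Tubb5 under 18, Myh9 under 15, Rpl7a and Rps15 under 14, Ppt1 under 13, Cotl1 and the lower gene Lpl under 11, Tuba1c under 7 and Rpl29 under 5. Mif, Tubb5, Cotl1 and the ribosomal protein genes have near-identical copies in the genome. The resident marker list had 0 of 24 genes past the threshold, beside 2.68% over all genes, a share at which few calls in a list of this size would be seen.

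At day 1 of IR, 1 plate with 4 members could be set against 3 sham day 1 plates, so that the IR plate was assumed to vary like the others. As a description of that plate, 27 genes were called higher and 5 lower (1.95% of genes tested; 1.64% higher and 0.304% lower), and no spread within IR day 1 entered the test. The calls were unstable. With plates of 1 or more members, 11 genes were called higher and 44 lower, and 6 of the 32 genes were among them. Hmox1 reached 7648 CPM against 0, 154 and 301 CPM in sham day 1 (log2 5.45, SE 0.90, a fitted value that rests on 1 IR plate). The monocyte-attracting chemokines Ccl12 (3194 against 167, 185 and 37.6 CPM) and Ccl7 (5127 against 0, 647 and 0 CPM) were higher on it too, as were Ch25h, the cholesterol 25-hydroxylase (1737 against 112, 123 and 0 CPM), and Fn1, fibronectin (1821 against 0, 123 and 0 CPM). Ccl7 and Ccl12 are similar in sequence. Of 13 chemokines tested these 2 were the ones past the threshold.

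The 5 lower genes included 2 Krüppel-like transcription factors and Fos. Klf4 had 1 UMI in IR day 1 and 103 in sham day 1, a ratio of 47.8 (95% exact counting interval 8.38 to 1904). Klf2 had 2 and 76 UMIs, a ratio of 17.6 (4.71 to 148). Fos, an immediate early gene that tissue digestion is known to induce, stood at 840.5 CPM against 3403, 4745 and 3496 CPM (log2 -2.24, SE 0.53). With plates of 1 or more members the log2 difference was -0.17 for Fos, -1.46 for Klf4 and -1.62 for Klf2, and 0 of these 3 passed. All 5 tested MHC class II genes were lower than in sham, with a median of -5.49, and 0 of them passed the threshold.

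From day 1 to day 3 of IR, with the same single plate for day 1 and the same assumption on its spread, 0 genes were called higher and 3 lower (0.182% of genes tested, with 214 at an unadjusted p under 0.05 in edgeR and 16 calls in DESeq2). Ccl12 went from 3194 CPM at day 1 to 221, 305, 101 and 226 CPM (log2 -3.79, SE 0.63). The log2 difference was -2.99 (SE 0.54) for the metallothionein Mt2 and -2.66 (SE 0.54) for Manf, a factor induced by stress of the endoplasmic reticulum. There were 0 calls without IR day 3 replicate 7, under the stricter rule or with wells of at least 2000 UMIs.

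At day 14, IR and sham had 1 plate each with at least 3 members and were not tested. The IR plate, with 4 members, had Spp1 at 0, Fos at 4961, Klf2 at 1318 and Klf4 at 1473 CPM, and Ctsd at 1085 CPM. The sham plate, also with 4 members, had Spp1 at 0, Fos at 1547, Klf2 at 416, Klf4 at 0 and Ctsd at 238 CPM. Mgl2 stood at 194 CPM after IR and 892 CPM after sham, and Lyve1 at 2093 and 2439 CPM.

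Resident macrophages were also set against the other macrophages of the same plates, which share the surgery, the day and the plate. The classes were formed from marker UMIs of the same cells, so these values, and the counts of genes past the edgeR threshold, describe the classes and nothing is inferred from them. On the 7 plates with at least 3 resident and 3 Ccr2/Thbs1 macrophages (5 of them MI), 149 of 2641 genes outside the rule would be called (5.64%), and on the 6 plates with at least 3 resident and 3 Gpnmb macrophages, 102 of 2508 (4.07%). Of 19 resident marker genes outside the rule, 9 were called higher than in Ccr2/Thbs1 macrophages and 0 lower, beside 2.92% higher over all genes. Of 18 such genes, 9 were called higher than in Gpnmb macrophages, beside 2.39% higher over all genes.

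Gas6 stood at 616, 1162, 1739, 1533, 890.1, 988 and 1599.6 CPM in resident macrophages and at 172, 114, 268, 229.5, 286, 254 and 220.4 CPM in Ccr2/Thbs1 macrophages of IR day 1 replicate 3, IR day 3 replicate 4 and MI replicates 1 to 5. It was higher on 7 of 7 plates (log2 2.41, SE 0.19) and, against Gpnmb macrophages, on 6 of 6 (log2 1.99, SE 0.23). Pros1, protein S, the other ligand of the same receptors, was 1.21 (SE 0.26) and 1.71 (SE 0.36) higher. Igf1 was higher than in Ccr2/Thbs1 macrophages on 7 of 7 plates, by 2.53 (SE 0.30), and than in Gpnmb macrophages on 5 of 6, by 0.78 (SE 0.21).

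Other genes higher than in Ccr2/Thbs1 macrophages on 7 of 7 plates were Ccl8, a chemokine (log2 3.20, SE 0.50), Fcgrt, the neonatal Fc receptor that recycles IgG and albumin (2.63, SE 0.40), and the scavenger receptor Stab1 (0.77, SE 0.13). Sepp1, a selenium transport protein, was higher on 6 of 7 (1.32, SE 0.30). Lower were 7 of 10 genes of monocytes and recruited macrophages (2.73% lower over all genes), among them Chi3l3, a chitinase-like protein (-3.27, SE 0.40), Fn1 (-2.51, SE 0.28), S100a4 (-1.39, SE 0.20) and Spp1 (-2.02, SE 0.46, lower on 6 of 7 plates). The glycolysis list had 5 of 12 genes lower, with Slc2a1, the glucose transporter, at -1.57 (SE 0.43) and Pgk1 at -0.72 (SE 0.19). Cd74 was lower on 6 of 7 plates (-2.62, SE 0.54).

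Against Gpnmb macrophages, resident cells had less Fabp5, a fatty acid binding protein, on 6 of 6 plates (log2 -3.38, SE 0.30), with 0, 617, 251, 73.3, 1161 and 490.2 CPM in resident cells and 812, 3973, 3109, 3220.1, 6902 and 4049 CPM in Gpnmb macrophages. Ctsl (-2.15, SE 0.29), Spp1 (-2.30, SE 0.29), Lpl (-2.11, SE 0.44) and Plin2 (-1.26, SE 0.28) were lower too. Fcgrt (2.76, SE 0.33), the tetraspanin Cd81 (2.54, SE 0.34), F13a1, a coagulation transglutaminase (1.54, SE 0.27), and Klf2 (1.69, SE 0.31) were higher on 6 of 6 plates. Thinning every cell to 1000 UMIs left 153 and 41 genes to compare, with 5 calls in each comparison.

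**Figure D5:**
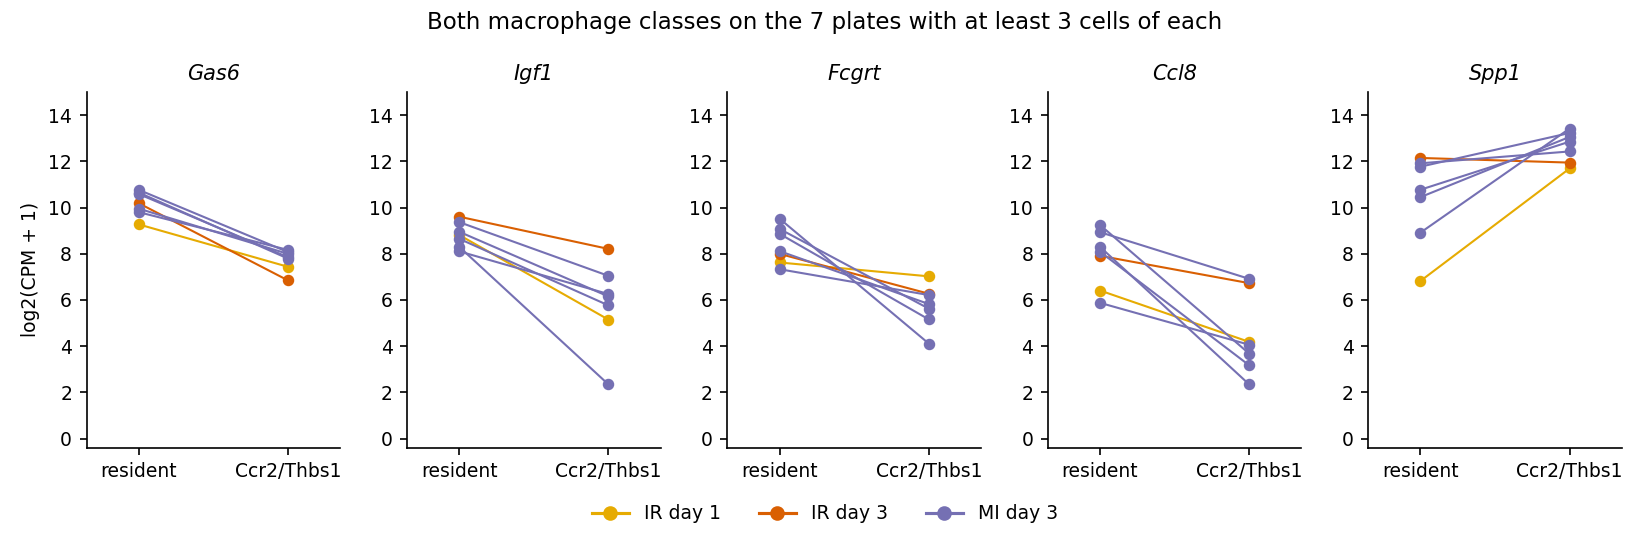
Levels of 5 genes in resident and in Ccr2/Thbs1 macrophages, as log2(CPM + 1) of UMIs summed per plate and class. Each line joins both classes of 1 plate, 7 in all. Gas6, Igf1, Fcgrt and Ccl8 are higher in resident macrophages on 7 of 7 plates and Spp1 is lower on 6 of 7.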

How the data were processed

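Per the labels and the study's methods, single cells were sorted by scatter into multiwell plates (SORT-seq) and reads were mapped with BWA to GRCm38/mm10, and the authors deposited UMI counts per gene and well. The version of BWA is not given in the sources used here. UMIs have 6 bases, so high counts are capped. Few cells and UMIs per plate limit the precision of each value. Rows of mitochondrial genes and spike-ins were left out.

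Members and gene lists were chosen with earlier results of these data known. Some genes of the marker sets and lists are not reported here. UMIs of members were summed per plate with at least 3 of them, filtered with filterByExpr, scaled with TMM and tested with edgeR 4.0.16 (R 4.3.3; quasi-likelihood F test, all groups in 1 fit, adjusted p under 0.05), with DESeq2 1.42.0 as an alternative. Comparisons with other macrophages used the plate as a block. CPM are UMIs per 1000000 before scaling. Shares and MHC class II loads were compared over plates with exact permutation tests (two-sided, SciPy 1.17.1) and Benjamini-Hochberg adjustment over the comparisons tested for each measure. Floors for genes without UMIs are 3 counts over the group, and floors and intervals cover counting error only. Named genes were the 12 with the largest change in each direction that passed, did not overlap between plates and had at least 50 CPM, and the members of the lists. Scripts were tested on simulated data. Promoter letters came from RefSeq (GRCm38.p6), which gave windows for 27025 genes. Doublets were not called. Alternatives changed the membership rule, depth, filter, scaling, controls and plates.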

Additional observations from a re-analysis of the deposited data

Results flagged for a closer look

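Single plates that stood apart within their group were searched for in 134 sets of plate values of the named genes in groups of 4 to 10 plates, and 9 were found (chance alone flags about 1 in 20). In IR day 3, replicate 7 was the highest plate for the cardiomyocyte genes Actc1 (3314 CPM), Mb (1381 CPM) and Ttn (1381 CPM), replicate 3 the highest for Ccl24 (663 CPM), and replicate 5 the highest for Cd74 (2514 CPM) and the lowest for Cstb (503 CPM). In MI day 3, replicate 2 was the highest for Cotl1 (1526 CPM), replicate 1 for Myl3 (13.3 CPM) and replicate 3 for Psap (7121 CPM).

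Resident macrophages differed between the 2 kinds of injury at day 3 in 44 genes, by the edgeR test of MI against IR itself. With permanent ligation, the log2 difference was -4.02 for Actc1, -4.56 for Cox6a2, -4.68 for Mb, -7.19 for Myh6 (a fitted value that depends on the prior count, since MI plates held 0 UMIs), -3.61 for Myl2, -5.10 for Myl3, -4.62 for Tnni3, -3.80 for Tnnt2 and -5.86 for Ttn, all genes of heart muscle. It was -3.76 for H2-Aa, -3.61 for H2-Ab1, -2.16 for Lpl and -3.73 for Rsad2. Higher in MI were Cotl1 (1.26), Gapdh (1.80), Mif (1.92), Myh9 (2.32), Ppt1 (1.38), Tuba1c (1.60), Tubb5 (1.41), Rpl29 (1.25), Rpl7a (1.48) and Rps15 (1.27). Gapdh passed under 8 of 20 alternatives. The MI plates carry a protocol label of their own and were deeper, so that injury, what goes with this label and depth cannot be told apart for these differences.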

How the results depend on the processing

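The 5 MHC class II genes, Mgl2 and Tubb5 passed the test of MI against sham under all 22 alternatives (21 for H2-DMa). Over all named genes and comparisons, 0 values changed sign. The threshold was lost in 374 refits and kept in 1703, and without 1 plate it was lost in 236 and kept in 1143, and the cause was not tested. The sums of members per plate held as few as 13580 UMIs. In what follows, counts are genes called.

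Between IR day 1 and sham day 1 (32 as reported), DESeq2 called 53, plates with 1 or more members 55, no filter 57 and the replicate block 18. For IR day 3 against sham (10), DESeq2 called 20, sham day 1 alone as control 38, sham day 14 alone 4, plates with at least 5 members 19, no filter 45, mixed wells left out 3, the replicate block 26, the stricter rule 6 and wells of at least 2000 UMIs 37. For MI against sham (137), sham day 14 alone gave 31, at least 5 members 85, no filter 230 and the replicate block 91. For MI against IR (44), at least 5 members gave 13, no filter 79, mixed wells left out 21, the replicate block 7 and the stricter rule 12. For IR day 3 against IR day 1 (3), DESeq2 gave 16, 1 or more members 55, no filter 14, and both the stricter rule and 2000 UMIs 0. Against Ccr2/Thbs1 macrophages (149), at least 5 cells gave 97, no filter 340 and thinning 5. Against Gpnmb macrophages (102), at least 5 cells gave 19, thinning 5, plates of IR day 3 alone 44 and of MI alone 62.

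Replicate numbers did not pair plates: over 8 same-numbered pairs the correlation of deviations ran from -0.08 to 0.08. The calls of the replicate block are given above as an alternative alone.

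The difference in share of gated cells from sham was -60.8 percentage points for IR day 3 and -72.7 for MI when every plate with a gated cell was used, and both then passed. Of all cells, IR day 3 minus IR day 1 passed at 6.91 (thinned), 5.05 (500 UMIs), 5.6 (gate of 2%) and 7.32 (gate of 0.5%). IR day 3 minus sham passed at 4.78 (500 UMIs) and 4.60 (gate of 2%), and MI minus IR day 3 at -4.91 (gate of 2%). MI minus sham turned to -0.312 with a gate of 2%, and IR day 14 minus sham day 14 to 0.0391 without sham day 14 replicate 6. The MHC class II load of MI minus sham missed the threshold with the stricter rule (-1.08), with plates of 1 or more members (-0.714) and after thinning (-1.08). MI minus IR day 3 turned to 0.00776 without IR day 3 replicate 3. The gate of 0.5% and all alternatives of the MHC class II load were chosen after seeing the data.

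Leaving out 1 plate at a time, calls ranged from 8 to 15 (IR day 1 against sham), 0 to 4 (IR day 3 against IR day 1), 1 to 60 (IR day 3 against sham), 16 to 44 (MI against IR), 106 to 165 (MI against sham), 90 to 159 (Ccr2/Thbs1) and 65 to 108 (Gpnmb). Shares of all cells ranged from -2.32 to -0.459 (IR day 1 minus sham), -2.15 to 0.0391 (IR day 14), 4.89 to 8.5 (IR day 3 minus IR day 1), 4.31 to 7.92 (IR day 3 minus sham), -6.8 to -3.19 (MI minus IR) and 0.672 to 1.86 (MI minus sham). Shares of gated cells ranged from -60.4 to -50.1 (IR day 3 minus sham), -15.6 to -5.36 (MI minus IR) and -68.2 to -63.6 (MI minus sham). MHC class II loads ranged from -1.43 to -0.315 (IR day 3 minus sham), -0.0219 to 0.00776 (MI minus IR) and -1.44 to -0.326 (MI minus sham), and the last was past the threshold in none of these. A minimum of 10 members per plate left too few plates and was not run, nor was IR day 1 without its single plate.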

Other observations

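Of 8 interferon-stimulated genes tested, 0 passed the edgeR test between MI and sham or between IR day 3 and sham, with medians of -0.42 and 1.37 on the log2 scale beside 0.19 and 0.18 for all genes. Over all genes 8.33% and 0.608% passed, so that 0 of 8 does not set this list apart. In IR day 1, where 1.95% of all genes were called on a single IR plate, Oasl2 was the 1 gene of this list among them, with 392 CPM against 0, 30.8 and 0 CPM in sham day 1, and it passed under 5 of 12 alternatives.

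Of 16 immediate early genes, which tissue digestion can induce, 1 passed between MI and sham (8.33% of all genes tested), and the median was -0.49. That gene, Btg2, was lower in MI (log2 -1.77, SE 0.53, adjusted p = 0.0426, edgeR) and passed under 9 of 22 alternatives. Of 10 efferocytosis and scavenger receptors, Lrp1, an endocytic receptor, was the 1 that passed after MI, again beside 8.33% over all genes (log2 2.00, SE 0.53, adjusted p = 0.0224, edgeR), and it missed without the sham day 14 plate (1.29, adjusted p = 0.0655, edgeR).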
